A study of Mus musculus with 6 samples.

Results

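The genes described here are those of the BAFF and APRIL system, 6 in all: the ligands Tnfsf13b (BAFF) and Tnfsf13 (APRIL), the receptors Tnfrsf13c (BAFF-R), Tnfrsf13b (TACI) and Tnfrsf17 (BCMA), and the adaptor Traf3. Members were taken as genes with a probe set annotated to that symbol and no other, which held for 4 of the 6, out of 22180 genes represented in the deposited table. Tnfsf13 was covered only by a probe set that also names Tnfsfm13 and Tnfsf12, so its signal is given as that of a shared probe set and not as that of a member. Traf3 had no probe set under its symbol in the annotation used here and was not analysed.

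BAFF and APRIL are ligands of the tumour necrosis factor family that are made mainly by myeloid, dendritic and stromal cells. BAFF-R on mature B cells binds BAFF alone and carries the signal that keeps these cells alive, whereas TACI and BCMA bind both ligands. TACI is found on activated and marginal zone B cells, and BCMA on plasma cells. In resting cells TRAF3, together with TRAF2 and the ubiquitin ligases cIAP1 and cIAP2, keeps the kinase NIK at a low level, and engagement of BAFF-R releases NIK, which starts the non-canonical NF-kB pathway. In the spleen this system is known for supporting follicular and marginal zone B cells.

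RNA from whole spleen was hybridised to 1 Affymetrix array per mouse, with 3 mice in each group, all 1 year old. The DX2 mice carried CAG-rtTA together with TRE DX2/+, so that doxycycline switches on AIMP2-DX2. This is a splice form of AIMP2 that lacks part of this tRNA synthetase scaffold. The activator rtTA is made from the CAG promoter, which is active in most tissues. The control littermates carried TRE DX2/+ without the activator. Food pellets with doxycycline (6.25 mg per kg) were given to both groups, starting when the mice were 8 weeks old. Since rtTA was present in the DX2 mice alone, an effect of rtTA and one of DX2 cannot be told apart. The labels call the samples biological replicates, and precision is limited by having 3 arrays per group.

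Several facts of the whole series touch the values below. Transcripts that define spleen were present on all 6 arrays: the lowest log2 value of the B cell gene Cd79a was 9.45, of the red pulp macrophage gene Spic 8.76 and of the T cell gene Cd3g 7.49, where the median of all genes lay between 5.42 and 5.46. The induced gene could not be checked, because the probe set covering Aimp2 also names Eif2ak1; it read 6.03 to 6.34 in control and 6.23 to 6.51 in DX2 spleens. Xist, the RNA of the inactive X chromosome, was high in control 1 and control 2 (10.9 and 10.5) and between 3.89 and 4.29 on the 4 other arrays. No DX2 spleen was thus high in Xist. The labels give no sex, and sex as read from Xist was in part confounded with genotype. DX2 1 stood apart from the other arrays in cell markers, with a mean log2 value of the neutrophil list of 8.76 against at most 7.67 elsewhere and of the T cell list of 6.63 against at least 7.66.

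The BAFF-R and TACI transcripts had lower means in DX2 spleens, unevenly so between the 3 animals, while the BAFF transcript differed by less than its spread within each group. None of the 4 members passed the test over all genes (limma, Benjamini-Hochberg, adjusted p under 0.05), which 0.316% of all genes did (0.28% lower in DX2 and 0.0361% higher). At an unadjusted p under 0.05 there were 2 of 4, Tnfrsf13c and Tnfrsf13b, beside 16% of all genes. The values of the 2 groups did not overlap for 1 of 4, Tnfrsf13b, beside 22% of all genes, or 11.2% when only genes lower in DX2 are counted. With 4 members these counts do not set them apart from all genes, and the description therefore rests on the single values.

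**Figure D1:**
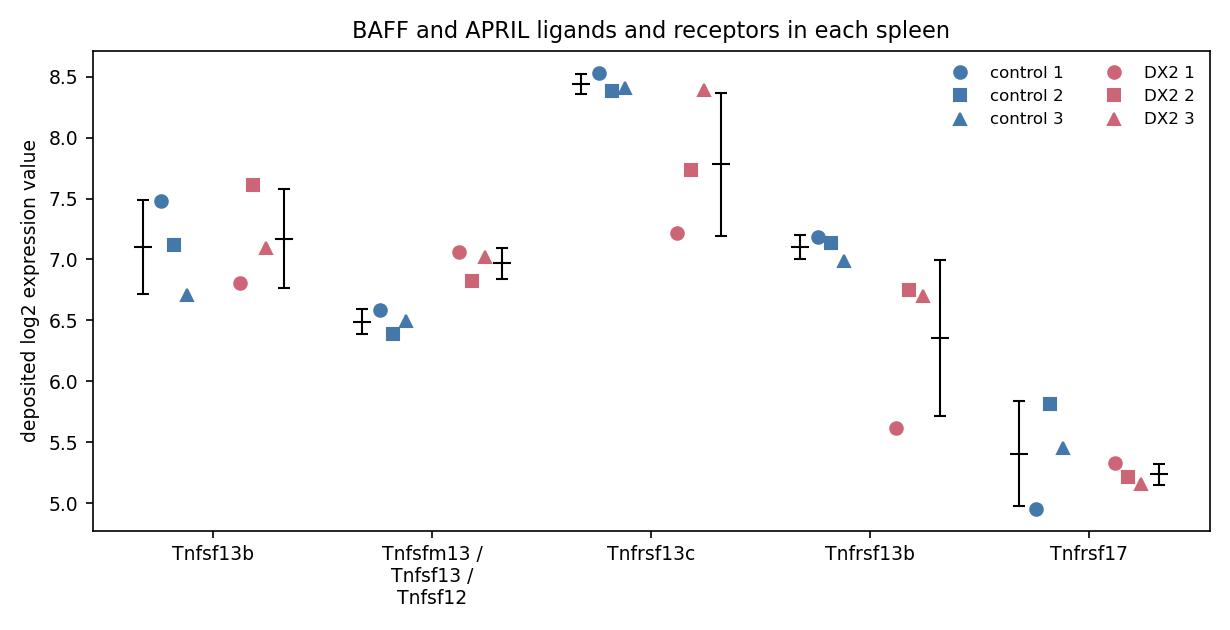
Deposited log2 expression value of each probe set (vertical axis) in 3 control spleens (blue) and 3 DX2 spleens (red), the marker shape giving the replicate number; black bars are the group mean ± SD, n = 3. The shared probe set and Tnfrsf13b have no overlap between the groups, the DX2 values of Tnfrsf13c run from 7.21 up to the control level, and Tnfsf13b and Tnfrsf17 overlap widely; heights of different genes are not comparable.

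Tnfsf13b encodes BAFF, the ligand without which mature B cells are lost. It read 7.48, 7.12 and 6.71 in controls 1, 2 and 3, and 6.81, 7.61 and 7.09 in DX2 1, 2 and 3 (log2). The lowest value was a control and the highest a DX2 spleen, and in between the groups overlapped. The means were 7.11 ± 0.39 in control and 7.17 ± 0.41 in DX2 spleens (SD, n = 3 each). The difference, DX2 minus control, was 0.07 on the log2 scale (SE 0.25, 95% interval -0.53 to 0.66, adjusted p = 0.932 by limma), an interval that still admits a change of more than 0.5 in either direction. Its sign turned when control 3 (-0.13) or DX2 2 (-0.15) was left out. Among the 4 spleens with low Xist, 1 control and 3 DX2, the difference was 0.46 (SE 0.34, adjusted p = 0.801), since the control with the lowest BAFF value was the only one with low Xist.

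APRIL, the ligand of TACI and BCMA, could be followed only through the probe set that Tnfsf13 shares with Tnfsf12, which encodes the related ligand TWEAK and lies beside it, and with Tnfsfm13, the read-through transcript of both. That probe set read 6.59, 6.39 and 6.50 in controls 1, 2 and 3, and 7.06, 6.82 and 7.02 in DX2 1, 2 and 3 (log2). All 3 DX2 values lay above all 3 control values, which held for 8.38% of all 41345 probe sets in that direction. The means were 6.49 ± 0.10 and 6.97 ± 0.13 (SD, n = 3 each), a difference of 0.48 (SE 0.12, 95% interval 0.19 to 0.77), or 1.39-fold. It did not pass when all probe sets were tested together (adjusted p = 0.146 by limma), a test that only 0.00484% of probe sets passed. The signal cannot be divided among the 3 transcripts. The difference was 0.43 or more without any 1 array and 0.47 among the 4 low Xist spleens.

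Tnfrsf13c encodes BAFF-R, the receptor that carries the survival signal of BAFF. It read 8.53, 8.38 and 8.40 in controls 1, 2 and 3, and 7.21, 7.74 and 8.39 in DX2 1, 2 and 3 (log2). DX2 1 and DX2 2 were below every control, while DX2 3 lay within the control range. The means were 8.44 ± 0.08 in control and 7.78 ± 0.59 in DX2 spleens (SD, n = 3 each), so the DX2 spleens varied far more than the controls. The difference was -0.66 (SE 0.27, 95% interval -1.29 to -0.03), which is 1.58-fold lower and did not pass over all genes (adjusted p = 0.290 by limma). It was -0.38 without DX2 1 and -0.96 without DX2 3, with adjusted p = 0.412 and 0.155, and its adjusted p ranged from 0.155 to 0.802 over the alternative settings.

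Tnfrsf13b encodes TACI, which binds both ligands. It read 7.18, 7.14 and 6.99 in controls 1, 2 and 3, and 5.62, 6.75 and 6.70 in DX2 1, 2 and 3 (log2). All 3 DX2 spleens were below all 3 controls, DX2 1 by the widest margin. The means were 7.10 ± 0.10 and 6.36 ± 0.64 (SD, n = 3 each), a difference of -0.75 (SE 0.29, 95% interval -1.42 to -0.07), 1.68-fold lower, that did not pass over all genes (adjusted p = 0.269 by limma). Without DX2 1 the difference was -0.38 (SE 0.12, adjusted p = 0.224), and over the alternative settings the adjusted p ranged from 0.143 to 0.814.

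Tnfrsf17 encodes BCMA, the receptor that sustains long-lived plasma cells. It read 4.95, 5.82 and 5.45 in controls 1, 2 and 3, and 5.33, 5.22 and 5.16 in DX2 1, 2 and 3 (log2). The DX2 values were close together and lay inside the range of the controls. These values are near the median of all genes on the array, and no detection call was available, so a small change could have gone unseen. The means were 5.41 ± 0.43 and 5.24 ± 0.09 (SD, n = 3 each), with a difference of -0.17 (SE 0.21, 95% interval -0.66 to 0.32, adjusted p = 0.741 by limma). Without control 2, which had the highest value, the difference was 0.03.

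**Figure D2:**
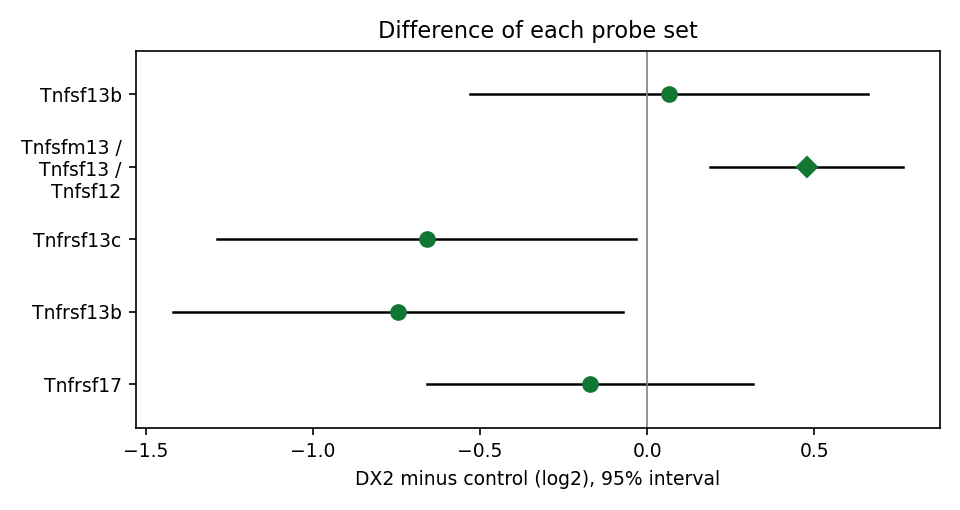
Difference between groups, DX2 minus control on the log2 scale (horizontal axis), for each probe set with its 95% interval from limma; circles are members and the diamond is the probe set shared by Tnfsf13. The intervals of Tnfrsf13c and Tnfrsf13b end at -0.03 and -0.07, that of the shared probe set starts at 0.19, and those of Tnfsf13b and Tnfrsf17 span 0.

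The receptors were next set beside 15 measured markers of mature B cells, the cells that carry BAFF-R. All 15 markers were lower in DX2 spleens (median -1.21, range -3.16 to -0.64), and 5 of them fell: the complement receptor gene Cr2, the IgE receptor gene Fcer2a (CD23), the transcription factor gene Ebf1, the antigen receptor chain gene Cd79b, and Ralgps2. Each of these 5 calls was lost in 9 to 11 of 17 alternative fits, with the direction kept. In whole spleen, fewer B cells and less RNA per B cell cannot be told apart. The difference of Tnfrsf13c was smaller in size than that of 14 of the 15 markers, and so was that of Tnfrsf13b; the exception in both cases was Spib, at -0.64 (SE 0.35), which was -0.23 without DX2 1 and -0.99 without DX2 3. The median over all genes was 0.01, and 10728 of the 22180 genes were lower in DX2 spleens.

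Spleen by spleen, Tnfrsf13c and Tnfrsf13b were lowest in DX2 1, as was the median B cell marker, though not every single marker. Relative to the control mean, the median B cell marker stood at -1.96 in DX2 1, -0.94 in DX2 2 and -0.91 in DX2 3 (log2). Cr2 (-4.13), Fcer2a (-3.12), Ebf1 (-2.20) and Ralgps2 (-1.67), all markers that fell, were instead lowest in DX2 2. Their values in DX2 1 were -2.32, -1.93, -1.97 and -1.60. Cd79b, which also fell, and the other markers were lowest in DX2 1. Tnfrsf13c stood at -1.23, -0.70 and -0.05 in the same spleens. It was therefore above the median marker by 0.73, 0.24 and 0.86, where the 3 controls ranged from -0.19 to 0.13. In DX2 3, where the BAFF-R transcript was at the control level, 14 of the 15 markers were further below their control mean than it was.

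Tnfrsf13b stood at -1.48 in DX2 1, -0.35 in DX2 2 and -0.40 in DX2 3 relative to the control mean. It was above the median B cell marker by 0.48, 0.58 and 0.51, against -0.27 to 0.22 in controls. Tnfrsf17, whose protein marks plasma cells, stood at -0.08, -0.19 and -0.25, so that DX2 1 was not its lowest spleen. For both B cell receptors of BAFF the gap to the median marker thus lay above the control range in each of the 3 DX2 spleens. The same held for Tnfrsf17 (1.88, 0.75 and 0.67, against -0.53 to 0.60 in controls). It also held for the ligand gene Tnfsf13b (1.66, 1.44 and 0.90, against -0.55 to 0.30 in controls). The gap was therefore not particular to Tnfrsf13c and Tnfrsf13b. These gaps are a description: with 3 mice a side no test was made of them, and the markers were chosen with earlier results of these data known.

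**Figure D3:**
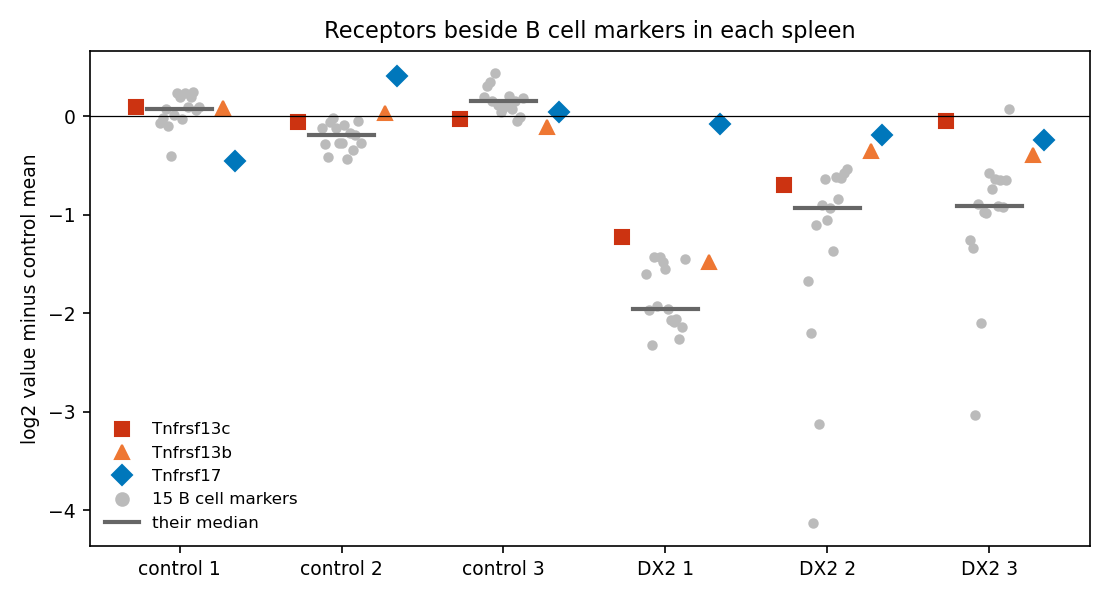
Log2 value minus the control mean of the same gene (vertical axis) in each spleen (horizontal axis), for the 3 receptors (coloured), the 15 B cell markers (grey points) and their median (grey bar). In DX2 spleens the grey median lies at -1.96, -0.94 and -0.91, and Tnfrsf13c, Tnfrsf13b and Tnfrsf17 lie above it in all 3.

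Transcripts of cells that make or use the ligands differed in their own ways. Of 12 measured plasma cell markers, one of which is Tnfrsf17 itself, 3 were higher and 9 lower in DX2 spleens (median -0.11), and 0 rose or fell by limma, with 2 at an unadjusted p under 0.05. Of 15 monocyte and macrophage markers 13 were higher (median 0.49) and 0 passed; 9 had no overlap between the groups (10.7% of all genes did so in this direction) and the same number an unadjusted p under 0.05, led by C1qb (1.34, SE 0.25) and C1qc (1.13, SE 0.21), which encode chains of complement C1q (0.0817 and 0.0834, limma). The mean log2 value of that list ran from 8.86 to 9.26 in DX2 and from 8.41 to 8.60 in control spleens. The shared APRIL and TWEAK probe set was likewise higher in all DX2 spleens, and the part of myeloid transcripts in its difference was not tested. Of 14 neutrophil markers 13 were higher (median 0.51), with none past the threshold, and of 9 dendritic cell markers 4 were higher and 5 lower (median -0.04), again with none past it. Of 8 stromal markers 3 were higher and 5 lower (median -0.21), with Cxcl13, the chemokine that draws B cells into follicles, at -0.89 (SE 0.46, adjusted p = 0.402 by limma), and at -0.33 without DX2 1. All 7 erythroid markers were higher (median 1.28) and all 11 T cell markers lower (median -0.34), and none passed. The mean log2 value of the erythroid list was 6.54 in control 1, against 8.13 and 8.04 in controls 2 and 3. In DX2 2 it was 7.51, below both of the latter. Without control 1 the erythroid median was 0.78. At an unadjusted p under 0.05 there were 0 neutrophil, 2 dendritic cell, 1 stromal, 2 erythroid and 1 T cell markers. Ccr7 stands on both the dendritic cell and the T cell list and was counted in each. Without DX2 1 the neutrophil median was 0.0024, the T cell median 0.05, the stromal median 0.04, the plasma cell median 0.01 and the erythroid median 0.80.

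The next list joined genes that process the ligands or shed the receptors with the APRIL co-receptor genes Sdc1, Sdc2 and Sdc4, and showed small differences. Of 8 measured genes 5 were higher and 3 lower in DX2 (median 0.09), and 0 passed, with 1 at an unadjusted p under 0.05. The lower ones included the co-receptor genes Sdc1 and Sdc2 (-0.06), so the median does not describe the enzymes alone. The median was 0.023 without DX2 2 and 0.046 without control 2. Furin, the protease that cuts BAFF and APRIL to their soluble forms, was 6.81, 6.90 and 6.998 in control and 7.22, 7.24 and 7.51 in DX2 spleens (log2). Its groups did not overlap, with a difference of 0.42 (SE 0.12, adjusted p = 0.168 by limma). Adam10, which sheds TACI, differed by 0.41 (SE 0.20; 0.27 without DX2 1 and 0.62 without DX2 2), and Ncstn, a subunit of the gamma-secretase that sheds BCMA, by 0.15 (SE 0.18). Sdc1, a heparan sulphate carrier that binds APRIL on plasma cells, differed by -0.15 (SE 0.13).

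Traf3 itself was not analysed, but 9 genes of a list of TRAF adaptors, NIK and its regulators were. All 9 were lower in DX2 spleens (median -0.15, from -0.77 to -0.006), as were 10728 of the 22180 genes. The threshold was passed by 0, and 2 had an unadjusted p under 0.05. The median was -0.07 without DX2 1 and -0.36 without DX2 2. Traf5, an adaptor of several receptors of the family, read 7.60, 7.52 and 7.85 in control and 6.87, 6.91 and 6.88 in DX2 spleens (log2). These DX2 values were close together and well below the controls, for a difference of -0.77 (SE 0.12, adjusted p = 0.0603 by limma). Birc3, which encodes cIAP2, read 8.84, 8.80 and 8.92 in control and 8.22, 8.41 and 8.11 in DX2 spleens, a difference of -0.61 (SE 0.12, adjusted p = 0.0835 by limma). For neither gene did DX2 1 stand far below the other DX2 spleens as it did for Tnfrsf13b. Neither passed: over the alternatives the adjusted p ranged from 0.0287 to 0.671 for Traf5 and from 0.0323 to 0.678 for Birc3 (limma). The lowest of each came with array weights, and both also passed without DX2 2, a fit in which 370 genes in all were called against 70. Traf5 passed as well with the dimmest 40% of genes removed (adjusted p = 0.0449, limma). Map3k14, which encodes NIK, differed by -0.05 (SE 0.11) and Traf2 by -0.07 (SE 0.15), and both turned to a small positive value with centred arrays (0.04 and 0.02).

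Downstream, 1 of 11 measured NF-kB kinases, subunits and inhibitors fell. It was Ikbkb, the IKK-beta kinase of the canonical pathway, which read 8.41, 8.31 and 8.48 in control and 7.58, 7.53 and 7.51 in DX2 spleens (log2). The groups were separated by more than the spread within either, with a difference of -0.86 (SE 0.10, adjusted p = 0.0387 by limma), 1.82-fold lower. The call was lost when any 1 array other than DX2 2 was left out (adjusted p from 0.0582 to 0.198, limma) and among the 4 low Xist spleens (-0.94, adjusted p = 0.671), as well as with centred arrays, while over all alternatives the difference stayed between -0.94 and -0.77. Rel, the c-Rel subunit that B cells use, differed by -0.92 (SE 0.23, adjusted p = 0.123 by limma) with all DX2 values below all controls. The subunits of the non-canonical pathway differed less: Nfkb2 by -0.16 (SE 0.27) and Relb by -0.25 (SE 0.15; -0.12 without DX2 1). The median of the 11 was -0.16, and it was 0.02 without DX2 1 and -0.37 without DX2 2. The part of the lower B cell markers in the values of Ikbkb, Rel, Traf5 and Birc3 was not tested.

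Of 10 other measured receptors that signal through TRAF3, 8 were higher and 2 lower in DX2 (median 0.14), 0 passed, 2 had an unadjusted p under 0.05, and the median was -0.19 without DX2 2, 0.32 without DX2 1, and 0.08 without control 2 or control 3. It was 0.24 without control 1. The 2 lower ones were Cd40, the receptor of B cell help, at -0.83 (SE 0.35, adjusted p = 0.301 by limma), and Cd27, found on T cells and memory B cells, at -0.55 (SE 0.27). Without DX2 1 they differed by -0.45 and -0.25. Cd40 read 6.07 in DX2 1, 7.58 in DX2 2 and 6.86 in DX2 3, where the controls spanned 7.42 to 7.87. Its lowest value was thus in DX2 1, as for Tnfrsf13c and Tnfrsf13b. Tnfrsf14 (HVEM) differed by 0.63 (SE 0.22) and Ltbr, the lymphotoxin receptor of stroma, by 0.23 (SE 0.12).

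Among survival and death effectors 8 of 15 were higher and 7 lower in DX2 (median 0.11), and 0 passed, with 5 at an unadjusted p under 0.05. The median was 0.0088 without DX2 2. Pim1, a survival kinase, read 7.46, 7.71 and 7.52 in control and 8.41, 8.33 and 8.72 in DX2 spleens (log2), without overlap. Its difference of 0.93 (SE 0.14) did not pass (adjusted p = 0.0602 by limma, 0.0228 to 0.678 over the alternatives). Its other, dimmer probe set differed by 0.16 (SE 0.17), and the mean of both by 0.54 (adjusted p = 0.148), so the size of the Pim1 difference is uncertain. Bcl2l1, which encodes BCL-XL, differed by 0.70 (SE 0.26, adjusted p = 0.243 by limma), with DX2 2 inside the control range. Without DX2 2 it was 1.01 and passed (adjusted p = 0.0395, in a range of 0.0395 to 0.804 over the alternatives). The erythroid list, whose cells also use BCL-XL, had mean log2 values of 9.69 and 9.37 in DX2 1 and DX2 3 and 7.51 in DX2 2, and its part in the value of Bcl2l1 was not tested. Akt1 differed by 0.37 (SE 0.10) and the death gene Bbc3 (PUMA) by 0.31 (SE 0.10), both without overlap. In all, 4 of the 15 effectors were higher without overlap and 3 lower, beside 10.7% and 11.2% of all genes. The 3 lower were Pik3cd (-0.27), Mtor (-0.17) and Prkcd (-0.16). Mcl1 and Bcl2, survival genes that BAFF is known to support in B cells, differed by -0.26 (SE 0.13) and -0.18 (SE 0.15); the other probe set of Mcl1 differed by 0.07 (SE 0.21).

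**Figure D4:**
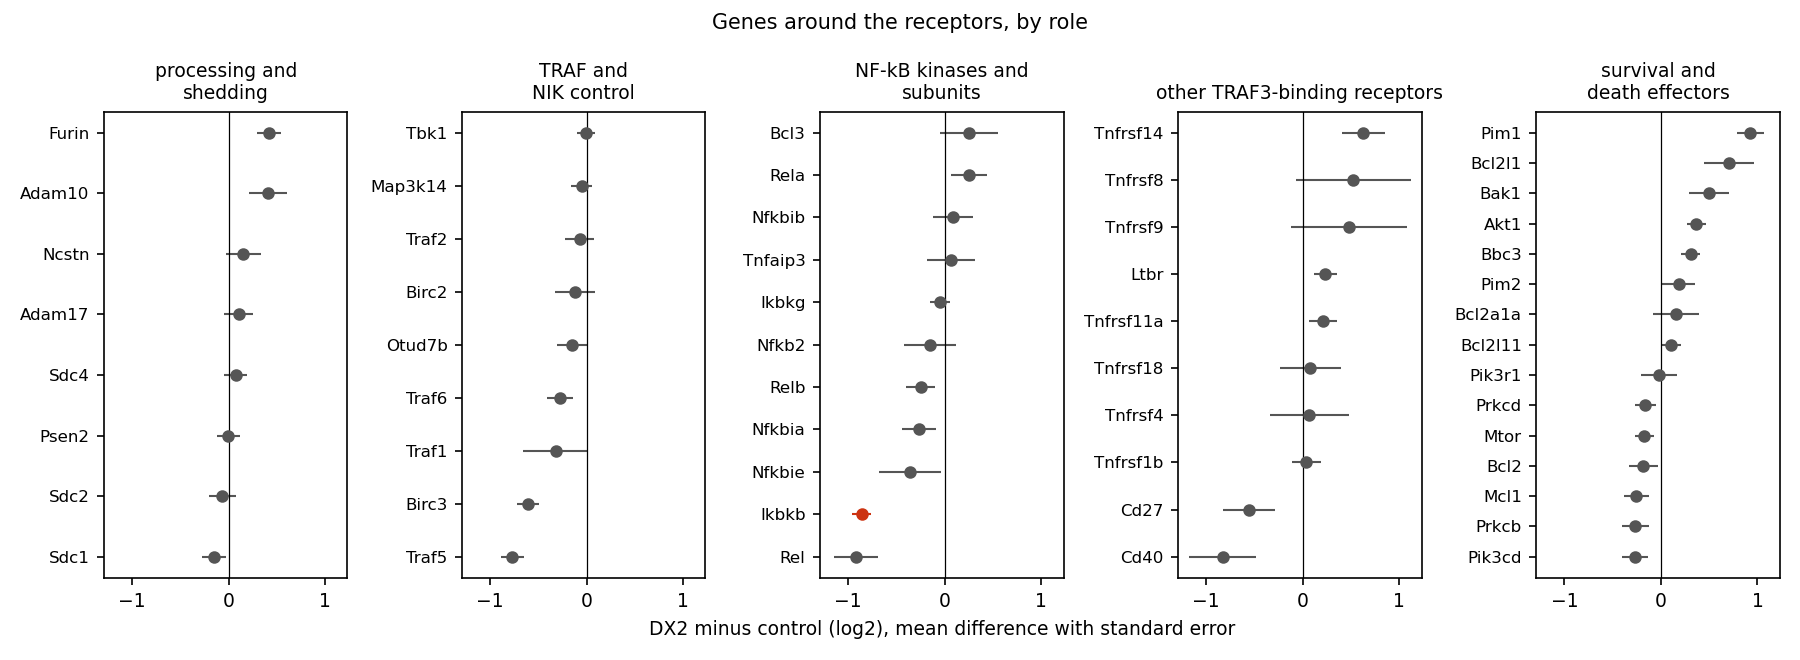
Difference between groups, DX2 minus control on the log2 scale (horizontal axis), with its standard error for each measured gene of 5 lists ordered by size; red marks an adjusted p under 0.05 by limma. Ikbkb is the only red point, Traf5 and Birc3 lie lowest in the TRAF and NIK list, and Pim1, on the brighter of its 2 probe sets, lies highest among the effectors.

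Genes with the profile most like that of each receptor were sought for the members whose log2 values spanned at least 1 over the 6 arrays, Tnfrsf13c and Tnfrsf13b. Likeness was the root mean square difference between profiles, each taken relative to its own mean over the 6 arrays. The 3 nearest to Tnfrsf13c were Nfatc1 (0.13), a calcium-dependent transcription factor, Sbk1 (0.13) and the kinase Prkce (0.14). Nfatc1, for instance, read 7.65, 8.40 and 8.72 in DX2 1, 2 and 3, with the controls between 8.63 and 9.04, the same order as Tnfrsf13c. The 3 nearest to Tnfrsf13b were Gimap1 (0.11), a lymphocyte GTPase, Lrat (0.11) and Shisa5 (0.11). None of these 6 genes passed over all genes, and their differences ranged from -0.77 (Prkce) to -0.57 (Nfatc1).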

How the data were processed

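The authors deposited 1 table of log2 expression values, with 41345 probe sets and 6 arrays. RMA (background correction, between-array normalization and a summary per probe set) is named in the submitters' processing notes; its version and the annotation build are not stated there. The range of values (0.771 to 13.3) was the basis for taking the scale as log2. RMA compresses large differences. Genes were named through the platform annotation from probe sets with 1 symbol, keeping for each gene the probe set with the highest mean.

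The DX2 group was compared with control in R 4.3.3 by limma 3.58.1 (default lmFit and eBayes, no covariate), using Benjamini-Hochberg adjustment over 22180 genes and a threshold of 0.05. The shared Tnfsf13 probe set was tested among all probe sets. The fit was tested on simulated data. "Rose" and "fell" are used only of genes past the threshold. Lists are described by counts and medians. Up to 4 genes of smallest p were named per list, with any that passed and a few more named for their role in the pathway after their values were seen. Members and lists were chosen with earlier results of these data known. Alternatives were the replicate block, each array left out, a filter on dim genes, other variance models, array weights, a second quantile normalization, centring, other probe set rules, an Xist term, low Xist arrays alone and an adjusted p under 0.1.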

Additional observations from a re-analysis of the deposited data

How the results depend on the processing

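The count of members past the threshold was 0 under all 18 alternatives, while the number of all genes called ranged from 0 to 547. The count of members without overlap was 1 or 2 when 1 array was left out, and 4 among the low Xist arrays, where it sets a single control against 3 DX2 spleens and the lone control is assumed to vary like them. Tnfrsf13c and Tnfrsf13b stayed lower in DX2 under all 17 alternative fits (-0.96 to -0.38 and -0.94 to -0.38). With 1 array left out, Tnfsf13b ranged from -0.15 to 0.26 (negative without control 3 or DX2 2), Tnfrsf17 from -0.40 to 0.033 (positive without control 2), Traf2 from -0.23 to 0.018 and Nfkb2 from -0.48 to 0.083 (both positive without DX2 1). Map3k14 turned to 0.023 with a second quantile normalization and 0.041 with centred arrays, and Traf2 to 0.020 with centred arrays; none of these 5 genes passed in any setting. Centring moved the all-gene median difference from 0.01 to 0.10 and gave -0.57 for Tnfrsf13c and -0.65 for Tnfrsf13b. No pairing of the samples by replicate number was seen (correlations of deviations across genes of -0.32, -0.14 and 0.07), which does not show that there was none. With the replicate block 0 members and 1 gene in all were called, Tnfrsf13c remained at -0.66 (adjusted p = 0.379, limma) and Ikbkb at -0.86 (adjusted p = 0.191, limma).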
